A study of Mus musculus with 6 samples.

Results

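NODAL is a secreted ligand of the TGF-beta family that keeps the epiblast primed and patterns it into mesoderm, endoderm and the anterior pole. It binds type I and type II activin receptors together with the co-receptor CRIPTO (gene Tdgf1), and the receptors phosphorylate SMAD2 and SMAD3, which enter the nucleus with SMAD4 and partners such as FOXH1. The pathway switches on its own ligand and its own inhibitors, among them the secreted LEFTY proteins and several intracellular brakes. The 10 genes described here are Nodal and Gdf3 (ligands), Tdgf1 (co-receptor), Acvr2b (type II receptor), Lefty1, Lefty2 and Cer1 (secreted antagonists), and Pmepa1, Skil and Tgif1 (intracellular inhibitors). They were chosen by symbol, all 10 were found among 55471 gene identifiers, and all 10 were among the 15091 genes tested.

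The libraries came from mouse epiblast stem cells, pluripotent cells resembling the epiblast at gastrulation, taken after 2 d of differentiation in serum as embryoid bodies, which are free-floating cell aggregates. There were 3 libraries of the Mixl1 induced group, from a line with doxycycline-inducible Mixl1 given the drug at 1 µg/mL for the last 24 h, and 3 of the Mixl1 KO group. Mixl1 encodes a homeodomain factor of the primitive streak. Before aggregation for 24 h the cells grew on irradiated feeder fibroblasts. Their medium held 10 ng/mL of bFGF and 20 ng/mL of Activin A, which is a ligand of the same receptors as NODAL. The labels do not give the altered part of Mixl1 in the KO cells, the promoter of the transgene, the number of clones, whether KO cells received doxycycline, or whether the triplicates were separate cultures. Line, Mixl1 and possibly the drug therefore cannot be told apart, and p-values measure the spread between these libraries, which may be technical.

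Gene reads per library ranged from 17490426 to 21026423. Mixl1 had 8860, 7720 and 7861 reads in the induced libraries and 817, 668 and 812 in the KO libraries, a log2 fold change of 3.44 (SE 0.055; edgeR quasi-likelihood test, adjusted p = 1.66e-22). These gene-level counts hold no record of which exons gave the KO reads. All 8 epiblast markers were detected and passed the test, 5 higher and 3 lower in induced libraries. Pou5f1 was at 807.1 CPM in the induced and 1294 CPM in the KO group (log2 fold change -0.68), and Sox2 at 187.6 CPM in the induced and 51.7 CPM in the KO group (1.86). CPM is the read count scaled to the TMM-normalised library size, and fold changes are induced over KO throughout. Of all tested genes, 62.6% passed an adjusted p of 0.05, 31.0% higher and 31.6% lower in the induced group. Macrophage markers were lower in the induced libraries for all 7 tested of 8 listed, with summed levels of 45.3 to 56.6 CPM in induced libraries and 310.9 to 448.1 CPM in KO libraries. Of 8 fibroblast markers, 3 were higher and 4 lower, with sums of 404.7 to 563.1 CPM in induced and 487.4 to 641.7 CPM in KO libraries. The part of macrophages or feeder fibroblasts in the results below was not tested. In such bulk samples, fewer cells of a type and less RNA per cell cannot be told apart.

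RefSeq start-site windows (GRCm38.p6, 250 bases before to 50 after the start) were matched for 5 of the 10 genes. The windows of Cer1 and Tdgf1, the genes with the largest rises, and of the ligand gene Nodal are printed because the regulator changed in these cells is a homeodomain factor. Each runs 5′ to 3′ on the gene's strand, with the homeodomain core TAAT (or ATTA on the other strand) and the SMAD motif CAGAC (or GTCTG) in capitals. The Cer1 window is chr4:82885102-82885401 on the minus strand, the Tdgf1 window chr9:110946109-110946408 on the minus strand, and the Nodal window chr10:61417722-61418021 on the plus strand.
Cer1: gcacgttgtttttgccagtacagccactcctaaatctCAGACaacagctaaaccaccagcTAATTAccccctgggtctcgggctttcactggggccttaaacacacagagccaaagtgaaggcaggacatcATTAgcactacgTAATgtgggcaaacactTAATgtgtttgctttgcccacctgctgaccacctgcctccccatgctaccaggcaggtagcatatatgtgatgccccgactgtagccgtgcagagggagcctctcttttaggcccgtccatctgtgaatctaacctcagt
Tdgf1: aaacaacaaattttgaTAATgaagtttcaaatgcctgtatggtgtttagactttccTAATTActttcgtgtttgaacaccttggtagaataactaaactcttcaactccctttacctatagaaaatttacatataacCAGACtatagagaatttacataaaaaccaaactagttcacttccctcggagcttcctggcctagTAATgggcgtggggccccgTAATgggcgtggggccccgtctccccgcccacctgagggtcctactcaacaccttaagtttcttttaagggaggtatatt
Nodal: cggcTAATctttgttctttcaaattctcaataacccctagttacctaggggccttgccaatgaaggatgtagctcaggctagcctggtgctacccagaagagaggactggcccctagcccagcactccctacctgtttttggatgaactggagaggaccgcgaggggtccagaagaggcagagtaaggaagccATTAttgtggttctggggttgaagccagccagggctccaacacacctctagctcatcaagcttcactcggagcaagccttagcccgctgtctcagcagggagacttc

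The Cer1 and Tdgf1 windows each held 5 matches to TAAT on either strand, and 6.86% of 32841 RefSeq windows of 300 bases held 5 or more. In each of the Cer1 and Tdgf1 windows, 2 of the matches overlap in TAATTA. The Nodal window held 2, and 34.1% of windows held 2 or more. The Acvr2b window held 0, and of the 5 windows of Tgif1, 1 held 4, 1 held 1 and 3 held 0. G and C made up 41.7% of the Tdgf1, 51.7% of the Cer1 and 54.0% of the Nodal window, beside a median of 52.7% over all windows. The part of base composition in the TAAT counts was not tested. CAGAC occurred 1 time each in the Cer1, Tdgf1 and Acvr2b windows, in 3 of the 5 Tgif1 windows and not in the Nodal window, against 49.6% of windows with a match. The FOXH1 motifs AATCCACA and AATACACA, present in 0.856% and 0.980% of windows, had no match in the 9 windows of these genes. A paired homeodomain motif, TAAT and ATTA with any 3 bases between them, occurs in 0.487% of windows, and its narrower form with T, any base and A between them in 0.0457%. Neither had a match in the 9 windows. Both strands were searched, and a match is a description of letters, not of binding.

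Of the 10 genes, 9 passed the test, 4 being higher and 5 lower in induced libraries, against a background of 62.6% of all tested genes. For 9 of the 10, all libraries of 1 group lay above all of the other, which held for 67.1% of tested genes. A change of at least 2-fold was found for 2 of the 10, Cer1 and Tdgf1, both higher. Of tested genes, 16.1% passed and reached that size, 6.47% higher and 9.67% lower. The median log2 fold change of the 10 was -0.08, beside 0.00 for all tested genes.

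**Figure D1:**
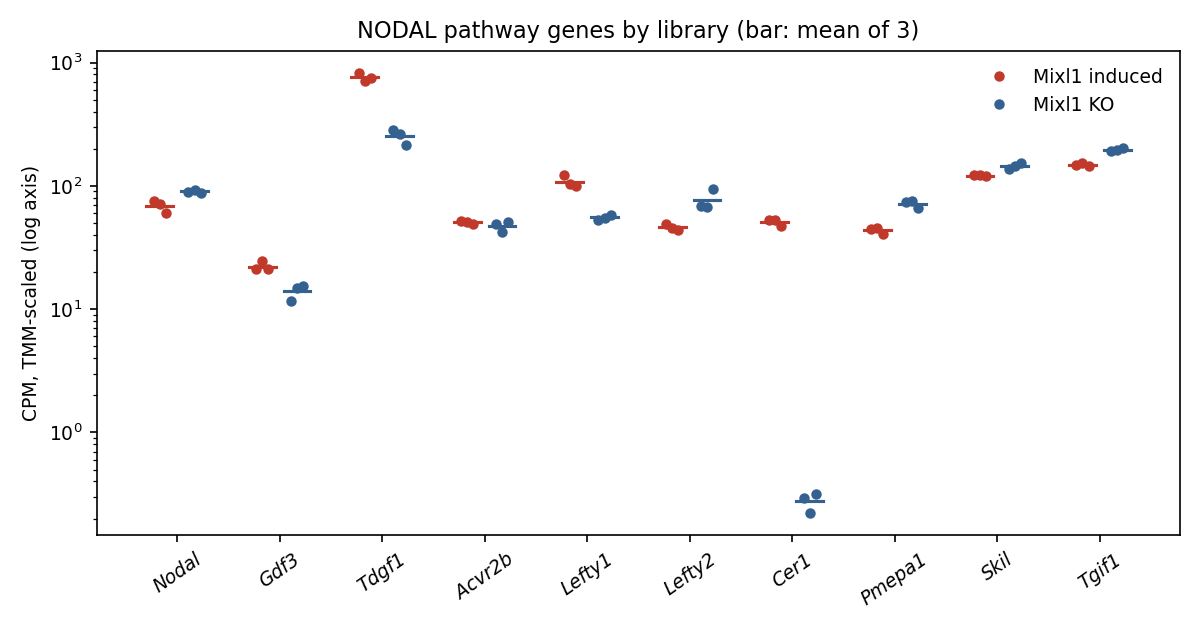
CPM (log axis) of each of the 10 genes in the 3 Mixl1 induced libraries (red, left) and the 3 Mixl1 KO libraries (blue, right), with a bar at each mean. Cer1 sits near 51.1 CPM in induced and 0.276 CPM in KO libraries, while Acvr2b is the gene whose groups overlap.

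Nodal, the ligand gene itself, was modestly lower in induced cells. It had 1562, 1242 and 1112 reads in the induced libraries and 1838, 1680 and 1666 in the KO libraries, or 75.3, 71.0 and 60.7 CPM in induced and 89.7, 92.6 and 87.7 CPM in KO. All induced libraries lay below all KO libraries, and induced replicate 3 was the lowest. The log2 fold change was -0.38 (SE 0.064; edgeR, adjusted p = 3.10e-05). The gene occupies chr10:61417972-61425338 of mm10 on the plus strand (ENSMUSG00000037171.6).

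Gdf3, a related ligand gene that uses the same receptors and co-receptor, was higher. Its level was 21.02, 24.3 and 21.1 CPM in induced libraries and 11.7, 14.8 and 15.5 CPM in KO libraries. The groups did not overlap, although KO replicate 1 stood below the other KO libraries. The log2 fold change was 0.66 (SE 0.10; edgeR, adjusted p = 7.24e-06). Gdf3 lies at chr6:122605403-122610087 on the minus strand (ENSMUSG00000030117.5).

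Per length, Nodal was the more abundant ligand transcript in both groups. In RPKM, the CPM divided by exon length in kb, Nodal averaged 32.9 ± 3.58 in induced and 43.0 ± 1.18 in KO libraries, and Gdf3 9.14 ± 0.785 in induced and 5.78 ± 0.831 in KO libraries (SD, n = 3 each). The Nodal share of the summed RPKM of these ligands was 78.2% ± 2.05 in induced and 88.2% ± 1.57 in KO libraries. Other ligands that signal through SMAD2 and SMAD3 had no member called higher. Of 8 listed, 6 were tested, and 5 of these fell, where 31.6% of all tested genes were lower, with a list median of -0.48 on the log2 scale against 0.00 for all genes. Inhbb, which encodes the subunit of activin B, fell to 5.49 CPM in induced libraries, against 32.1 CPM in KO libraries (log2 fold change -2.54). Gdf11 (-0.62), Tgfb1 (-0.51), Tgfb2 (-0.46) and Tgfb3 (-0.31) fell as well. Inhba, which encodes the subunit of activin A, had a log2 fold change of -0.32 (SE 0.16; edgeR, adjusted p = 0.0841). Gdf1 had 0 reads in every library, and Mstn had 1 read in the KO group. Whether other genes overlap Gdf1, which bears on its count, was not examined.

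Tdgf1 was the most abundant of the 10 transcripts per length and rose 2.99-fold. Its reads numbered 17133, 12389 and 13696 in induced libraries and 5834, 4772 and 4074 in KO libraries. That gave 826.0, 707.9 and 747.8 CPM in induced and 284.6, 263.0 and 214.4 CPM in KO libraries, with a wide gap between the groups. The log2 fold change was 1.58 (SE 0.11; edgeR, adjusted p = 7.40e-06). Tdgf1 lies at chr9:110939603-110946158 on the minus strand (ENSMUSG00000032494.12). The ratio of Tdgf1 to Nodal, both in RPKM, was 8.76, 7.97 and 9.84 in induced libraries and 2.54, 2.27 and 1.95 in KO libraries.

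Cfc1, which encodes CRYPTIC, the other CRIPTO-family co-receptor, rose too, to 9.46 CPM in induced libraries against 1.48 CPM in KO libraries (log2 fold change 2.68). The type II receptor gene Acvr2b did not pass the test. It had 51.9, 51.1 and 49.1 CPM in induced libraries and 48.8, 42.5 and 51.2 CPM in KO libraries, and the groups overlapped because KO replicate 3 reached the induced range. Its log2 fold change was 0.09 (SE 0.065; edgeR, adjusted p = 0.218). A short antisense gene overlaps Acvr2b (chr9:119402118-119434995, plus strand, ENSMUSG00000061393.14), and opposite-strand reads made up 0.0348% of its stranded reads in the induced group and 0.182% in the KO group.

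The receptor genes around it moved in both directions. Of 7 other receptors and co-receptors, 6 were tested, with 3 higher and 3 lower, beside 31.0% of all tested genes higher and 31.6% lower. The type I receptor gene Acvr1b, encoding ALK4, fell to 68.0 CPM in induced libraries against 128.9 CPM in KO libraries (log2 fold change -0.92). Acvr2a, the paralog of Acvr2b, rose by 0.28 and the TGF-beta receptor gene Tgfbr1 by 0.13 on the log2 scale, while Tgfbr2 and Tgfbr3 had log2 fold changes of -0.56 and -0.42 and fell. The second NODAL type I receptor gene, Acvr1c (ALK7), was too low to test, with 34 reads in the induced group and 13 in the KO group.

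The 3 secreted antagonists gave 3 different patterns. Cer1, which encodes Cerberus-like 1, a binder of NODAL and BMP ligands made by anterior endoderm, was nearly absent from KO libraries. It had 1102, 927 and 867 reads in induced libraries and 6, 4 and 6 reads in KO libraries. The mean was 51.1 ± 3.30 CPM in induced and 0.276 ± 0.0498 CPM in KO libraries (SD, n = 3 each), and the groups were far apart. The fitted log2 fold change was 7.49, or 180.1-fold (SE 0.15 on the log2 scale; edgeR, adjusted p = 5.99e-21), the 17th highest of all tested genes. Cer1 occupies chr4:82881751-82885148 on the minus strand (ENSMUSG00000038192.5), and 16 reads in the whole KO group limit the precision of the fold.

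Other markers of anterior visceral and anterior definitive endoderm were mostly higher as well. Of 10 listed and tested, 8 rose and none fell, beside 31.0% of all tested genes called higher and 31.6% lower, with summed levels of 298.2 to 315.8 CPM in induced libraries and 50.4 to 53.5 CPM in KO libraries. The list median was 2.35 on the log2 scale. Dkk1, a secreted WNT inhibitor, had 91.4 CPM in induced and 2.07 CPM in KO libraries (log2 fold change 5.45), and the organizer gene Gsc 25.2 CPM in induced and 1.16 CPM in KO libraries (4.43). Lhx1 (2.29) and Gata6 (5.26) rose too. The endoderm factor gene Sox17 was at 0.810 CPM in induced and 0.505 CPM in KO libraries (edgeR, adjusted p = 0.130), and Hhex at 5.75 CPM in induced and 6 CPM in KO libraries (edgeR, adjusted p = 0.709). Of 8 visceral endoderm markers, 4 were tested, and 0 were called higher and 2 lower. The endocytic adaptor gene Dab2 was at 8.64 CPM in induced and 20.3 CPM in KO libraries (-1.23), and the endocytic receptor gene Cubn at 0.389 CPM in induced and 1.08 CPM in KO libraries (-1.45). Ttr had 0 reads in every library, Afp had 6 reads in the induced and 14 in the KO group, and the 8 markers summed to 10.8 to 12.15 CPM in induced and 21.8 to 25.6 CPM in KO libraries. Of 7 node markers, 5 were tested, beside the same shares of all tested genes, 31.0% higher and 31.6% lower. Only Cfc1 was called higher (2.68), and 4 were lower: Foxj1 (-2.47), Nog (-1.30), Dand5 (-0.91) and Chrd (-0.36). The node list median was -0.91 on the log2 scale. Cfc1, Dand5 and Chrd are also on pathway lists described here. The part of a change in cell composition in the Cer1 result was not tested.

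Lefty1 and Lefty2, neighbouring paralogs whose products block NODAL and its co-receptor, moved in opposite directions. Lefty1 had 121.7, 104.2 and 99.3 CPM in induced libraries and 53.1, 55.1 and 58.0 CPM in KO libraries. Every induced library was above every KO library, and the log2 fold change was 0.97 (SE 0.067; edgeR, adjusted p = 2.85e-10).

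Lefty2 had 48.7, 45.5 and 43.6 CPM in induced libraries and 69.0, 67.8 and 95.01 CPM in KO libraries. KO replicate 3 stood well above the other KO libraries, and the groups still did not overlap. The log2 fold change was -0.75 (SE 0.14; edgeR, adjusted p = 0.00306) and without KO replicate 3 it was -0.57 (edgeR, adjusted p = 4.98e-09).

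The ratio of Lefty1 to Lefty2 reads within a library does not depend on library scaling. It was 2.50, 2.29 and 2.28 in induced libraries and 0.769, 0.812 and 0.611 in KO libraries, with all induced ratios above all KO ratios. Per length, the Lefty1 transcript averaged 61.7 RPKM and Lefty2 17.6 RPKM in induced libraries, and Lefty1 31.5 RPKM and Lefty2 29.6 RPKM in KO libraries, where their ranges overlapped. On the log2 scale the ratio averaged 1.23 ± 0.076 in induced and -0.46 ± 0.22 in KO libraries (SD, n = 3 each), a difference of 1.70 (two-sided exact permutation test, p = 0.1, the smallest that 3 against 3 allows). The open reading frames of both genes have 1107 bases, of which 1017 are identical (91.9%) in the GENCODE transcripts. Of all 50-base windows in the Lefty1 transcript, 17.9% also occur in the Lefty2 transcript, and of the Lefty2 windows 11.6% occur in Lefty1. For 75-base windows these shares were 11.2% and 7.21%, and for 100-base windows 4.80% and 3.075%. Reads lying wholly within such stretches fit both genes, and the deposited tables keep multimapped reads in a row of their own. Each gene's level is therefore uncertain by the reads lost there.

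Counted per length and added up, transcripts of the 3 secreted antagonists of the set were higher in every induced library than in any KO library. The summed RPKM of Lefty1, Lefty2 and Cer1 was 118.4, 107.2 and 100.4 in induced libraries and 56.8, 57.4 and 69.6 in KO libraries. Cer1 made up 27.1% ± 1.31 of that sum in induced and 0.259% ± 0.0379 in KO libraries, while Lefty2 made up 16.2% ± 0.454 in induced and 48.0% ± 3.76 in KO libraries (SD, n = 3 each). The Lefty1 share was 56.7% ± 1.62 in induced and 51.7% ± 3.77 in KO libraries. Divided by the summed RPKM of Nodal and Gdf3, the antagonist sum was 2.59 ± 0.127 in induced and 1.26 ± 0.161 in KO libraries. These sums describe transcripts and carry no test, and exon lengths over all annotated transcripts may differ from the isoforms expressed. They leave out other antagonist genes, such as Fst, Fstl3 and Dand5 described below, and other ligand genes such as Inhbb.

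**Figure D2:**
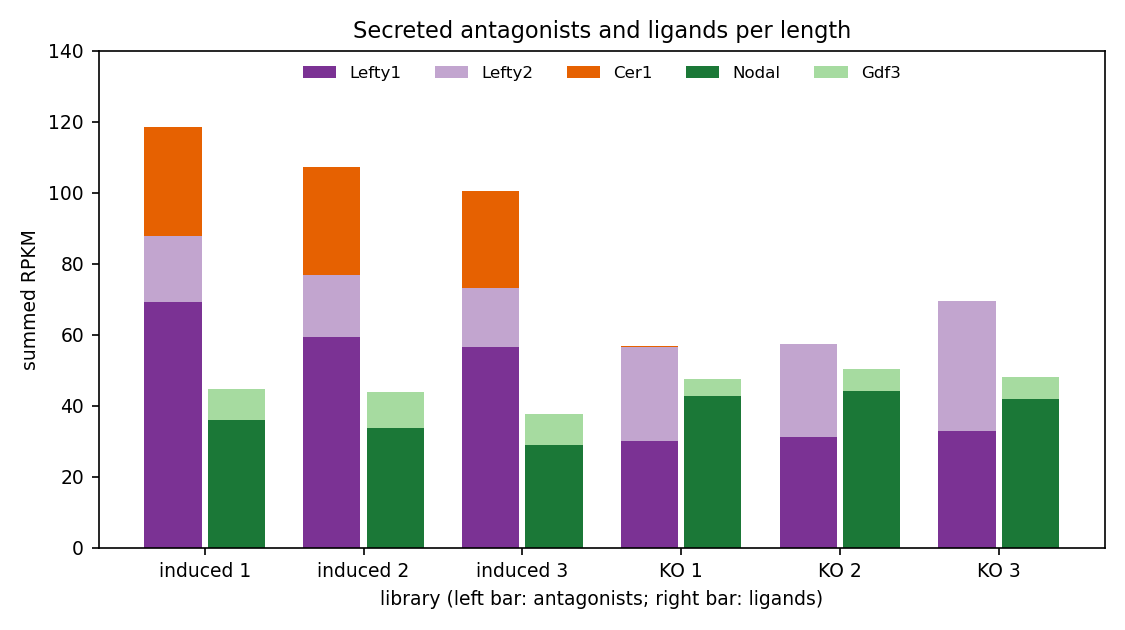
Stacked RPKM (CPM divided by exon length in kb) in each library, with the secreted antagonists Lefty1, Lefty2 and Cer1 in the left bar and the ligands Nodal and Gdf3 in the right bar. Antagonist sums are 100.4 to 118.4 in induced and 56.8 to 69.6 in KO libraries, and the Cer1 layer is thick in induced libraries and almost without height in KO libraries.

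Among other extracellular modulators, 4 of 8 tested rose and 3 fell, with a list median of 0.13. Over all tested genes, 31.0% were higher and 31.6% lower. Pcsk6, which encodes the proprotein convertase PACE4 that cleaves the NODAL precursor, rose to 9.20 CPM in induced libraries against 2.27 CPM in KO libraries (log2 fold change 2.02). Furin, its widely expressed relative, was at 96.8 CPM in induced and 92.2 CPM in KO libraries (edgeR, adjusted p = 0.322). Dand5, a Cerberus-family antagonist gene of the node, fell by 0.91 and the inhibin subunit gene Inha by 0.75 on the log2 scale, both at low levels. Fst, which encodes the activin trap follistatin, was abundant at 345.6 CPM in induced and 389.9 CPM in KO libraries and fell by 0.17. Fstl3 (0.70), Nomo1 (0.25) and Ncln (0.18) rose, the last 2 encoding a membrane complex that restrains NODAL signalling in zebrafish.

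The intracellular inhibitors of the set were all lower in induced libraries. Pmepa1, a TGF-beta-induced membrane protein that sequesters SMAD2 and SMAD3, had 44.6, 45.8 and 40.3 CPM in induced libraries and 73.8, 75.9 and 65.5 CPM in KO libraries. The groups were well apart, with a log2 fold change of -0.72 (SE 0.064; edgeR, adjusted p = 2.70e-09). It lies at chr2:173224458-173276533 on the minus strand (ENSMUSG00000038400.15).

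Tgif1, a homeodomain corepressor of SMAD complexes, had 148.3, 153.0 and 143.7 CPM in induced libraries and 192.2, 195.9 and 201.1 CPM in KO libraries, with no overlap. Its log2 fold change was -0.41 (SE 0.045; edgeR, adjusted p = 7.48e-08). The median over 753 tested genes of its chromosome, 17, was -0.13, the lowest among the chromosomes that carry the 10 genes, and its part in the Tgif1 value was not tested. Chromosomes 15 (-0.33) and 18 (-0.16), which carry none of the 10, had lower medians. Whether such medians bear on genes of the other lists was not tested. Tgif1 lies at chr17:70844205-70853546 on the minus strand (ENSMUSG00000047407.17).

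Skil, which encodes the SMAD corepressor SnoN, showed the smallest called change of the set. It had 121.6, 121.3 and 119.9 CPM in induced libraries and 137.0, 145.6 and 151.8 CPM in KO libraries. The induced libraries were nearly equal and all lay below the KO range, with a log2 fold change of -0.26 (SE 0.048; edgeR, adjusted p = 6.77e-05). Its position is chr3:31095058-31122577 on the plus strand (ENSMUSG00000027660.16).

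Further intracellular inhibitors moved both ways, with 5 of 9 tested being higher and 3 lower, and a median of 0.16. Shares over all tested genes were 31.0% higher and 31.6% lower. Tgif2, the paralog of Tgif1, fell to 78.9 CPM in induced libraries against 145.1 CPM in KO libraries (log2 fold change -0.88), whereas Ski, the paralog of Skil, rose by 0.16. Smad7, an inhibitory SMAD gene that the pathway itself induces, rose to 38.4 CPM in induced libraries against 28.8 CPM in KO libraries (0.41). Bambi, a pseudoreceptor gene, rose by 1.00 on the log2 scale, and the ubiquitin ligase gene Smurf1 by 0.33. Ldlrad4, which encodes a SMAD2 and SMAD3 sequestering protein related to PMEPA1, had a log2 fold change of -2.39 and the ligase gene Nedd4l one of -1.81. Thus Pmepa1, Ldlrad4, Nedd4l, Tgif1, Tgif2 and Skil were lower while Smad7, Bambi, Ski, Smurf1 and Ppm1a were higher.

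The core transducer genes Smad2 and Smad4 did not pass the test. Of 8 SMAD2/3 pathway transducers and partners, 1 rose, 3 fell and 4 did not pass, where 31.0% of all tested genes were higher and 31.6% lower. Smad2 was at 62.2 CPM in induced and 64.9 CPM in KO libraries (log2 fold change -0.06, SE 0.057) and Smad4 at 135.7 CPM in induced and 143.3 CPM in KO libraries (-0.08, SE 0.051). Smad3 fell to 57.7 CPM in induced libraries against 76.8 CPM in KO libraries (-0.41). Foxh1, the DNA-binding partner of SMAD2 in NODAL responses, rose to 176.3 CPM in induced libraries against 127.8 CPM in KO libraries (0.46).

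Targets known to respond to NODAL or activin in epiblast, streak and endoderm were divided. Of 13 tested, 3 rose, 6 fell and 4 did not pass, where 31.0% of all tested genes were higher and 31.6% lower. The list median was -0.06. The rises were Gsc (4.43), Lhx1 (2.29) and Foxa2, the last at 7.995 CPM in induced and 4.90 CPM in KO libraries (0.70). These 3 genes, and the uncalled Sox17 and Hhex, are also on the anterior endoderm list above. Nanog is also on the epiblast list, Chrd on the node list, and Otx2 on both the epiblast and the anterior endoderm list. The lists are therefore not separate observations. The brachyury gene T fell to 204.8 CPM in induced libraries against 1807 CPM in KO libraries (-3.14), and Nanog to 53.5 CPM in induced against 161.3 CPM in KO libraries (-1.59). Fgf8 (-1.16) and Wnt3 (-0.92) were also lower. Eomes, which depends on NODAL in the embryo, was at 87.4 CPM in induced and 84.2 CPM in KO libraries (0.05, SE 0.064; edgeR, adjusted p = 0.487). Over all 6 lists of further pathway genes, 50 of 53 were tested, with 16 higher, 23 lower and 11 that did not pass, a called share of 78.0% beside 62.6% of all tested genes.

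**Figure D3:**
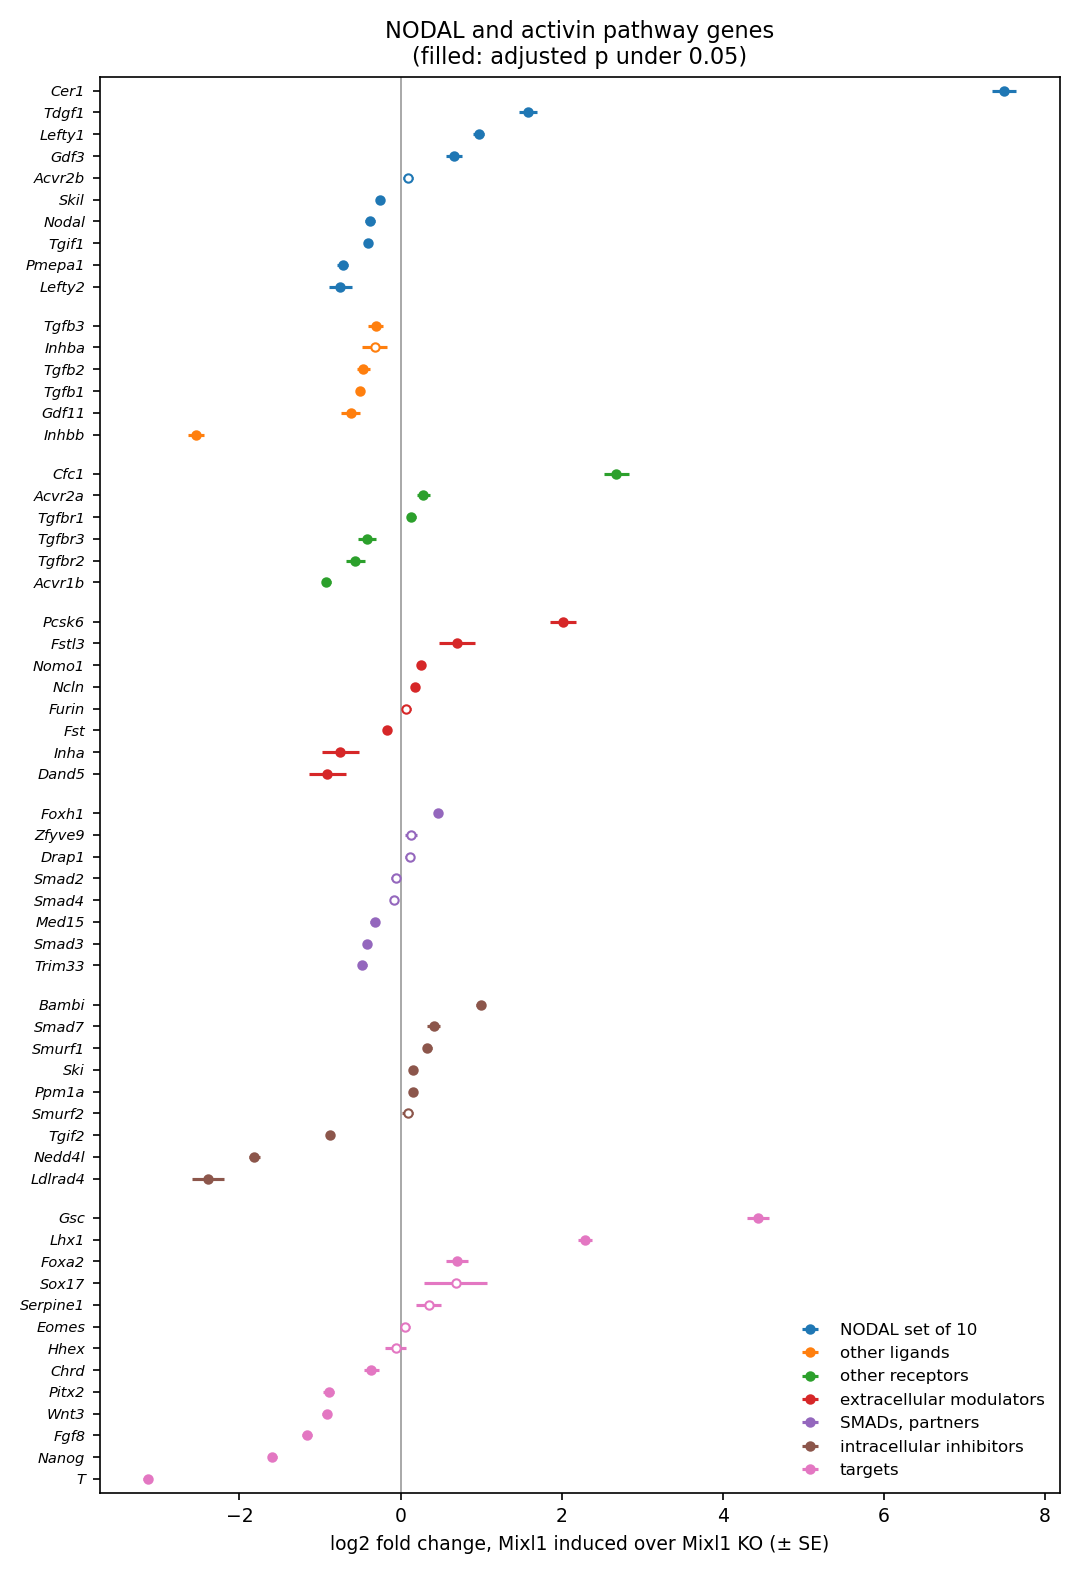
Log2 fold change (Mixl1 induced over Mixl1 KO) with its standard error for the 10 genes and for tested genes of 6 further pathway lists, coloured by list and ordered by value within it. Filled points passed an adjusted p of 0.05. Cer1 at 7.49 is the farthest to the right, and 5 of 6 tested other ligands lie left of 0 as filled points.

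Lefty1 and Lefty2 share a neighbourhood with Mixl1 itself. In mm10, Lefty2 occupies chr1:180893108-180899103 (ENSMUSG00000066652.5) and Lefty1 chr1:180935022-180938400 (ENSMUSG00000038793.8), both on the plus strand, 35.9 kb apart and starting 196.1 kb and 238.0 kb from the start of Mixl1 (chr1:180693043-180697034, minus strand). Within 500 kb of Mixl1, 17 other genes were tested, including Lefty1 and Lefty2, and 4 were higher, 9 lower and 4 not called, with a median log2 fold change of -0.25. Of all tested genes, 62.6% were called, 31.0% higher and 31.6% lower, and nothing particular to the neighbourhood was tested. Acbd3, next to Mixl1, had a log2 fold change of -0.48 and the histone gene H3f3a one of -0.39. Lefty1 had the largest rise among these 17 neighbours, ahead of the low-level gene Stum (0.87), and Ephx1 (-0.94) and Lefty2 the largest falls. Whether the alteration of the Mixl1 locus bears on these neighbours was not tested.

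**Figure D4:**
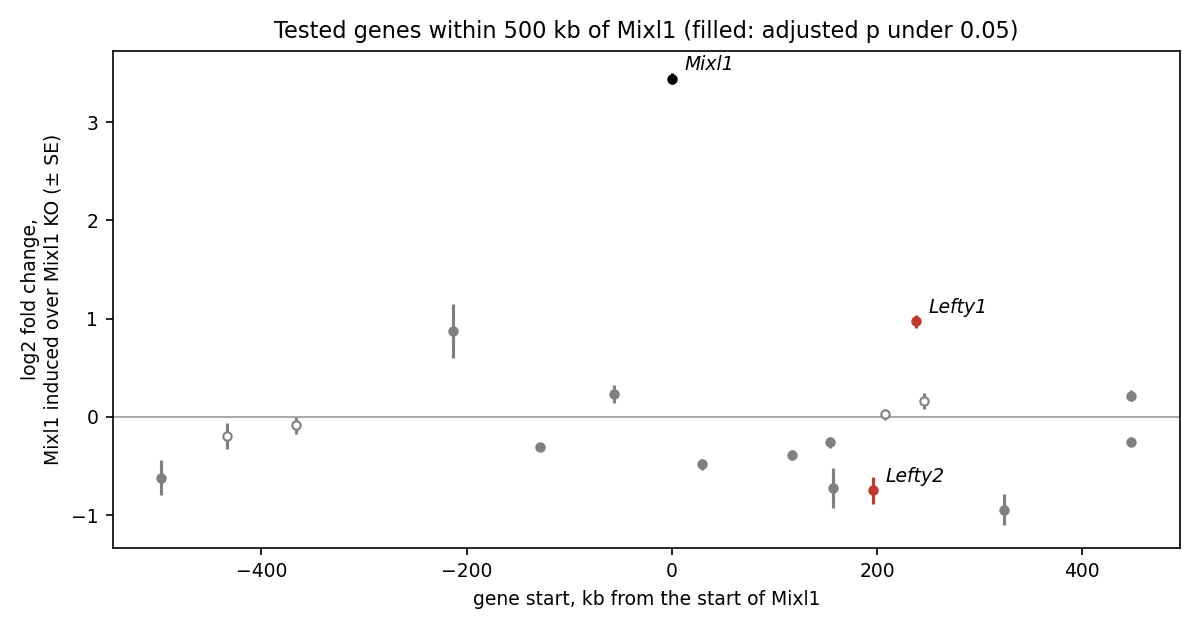
Log2 fold change (Mixl1 induced over Mixl1 KO, with its standard error) of tested genes against the distance of their start from the start of Mixl1, in kb. Lefty2 at 196.1 kb lies at -0.75 and Lefty1 at 238.0 kb at 0.97. Filled points passed an adjusted p of 0.05.

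The order of the 10 transcripts per length also differed between the groups. In induced libraries it ran from Tdgf1 (290.1 RPKM) over Lefty1 (61.7), Nodal (32.9), Cer1 (29.4), Tgif1 (26.4), Lefty2 (17.6), Acvr2b (12.9), Skil (12.5) and Gdf3 (9.14) to Pmepa1 (8.87 RPKM). Libraries overlapped for the neighbours Nodal and Cer1, Acvr2b and Skil, and Gdf3 and Pmepa1. In KO libraries the order was Tdgf1 (96.9 RPKM), Nodal (43.0), Tgif1 (34.9), Lefty1 (31.5), Lefty2 (29.6), Skil (14.9), Pmepa1 (14.6), Acvr2b (12.1), Gdf3 (5.78) and Cer1 (0.159 RPKM). There the overlapping neighbours were Lefty1 with Lefty2 and Skil with Pmepa1. Reads on the opposite strand of the 10 genes made up at most 0.581% of a gene's stranded reads in either group, that value being Lefty2 in the KO group.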

How the data were processed

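RNA was sequenced from 3 Mixl1 induced and 3 Mixl1 KO libraries, grouped and numbered by their titles. The kit selected poly(A) RNA and kept the strand, per the labels. The authors deposited raw read counts per gene with unstranded and stranded columns. The submitters' processing notes name mm10, STAR, bcl2fastq and DESeq2, and the sources used here give no versions. The column opposite to the first read was used, which held 96.2% to 96.3% of stranded gene reads. Rows that name no gene held 15.1% to 17.6% of reads and were left out. The authors' deposited comparison table holds a mean normalised count (signal), log2 fold change, Wald score, p-values and −log10 p. Its log2 fold changes for the 10 genes, in the authors' deposited table, differ from those computed here by at most 0.039.

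Identifiers were matched to GENCODE M21 (GRCm38), for 55230 of 55471. Genes passing filterByExpr were tested with edgeR 4.0.16 (TMM, quasi-likelihood with robust dispersion, group as the only term, two-sided, Benjamini-Hochberg over all 15091 genes, threshold 0.05). The SE is the log2 fold change over the square root of F. RPKM used the exon-union length. The script was tested on simulated data. Replicates differed by more than counting noise (chi-square 2.16 to 4.81 per degree of freedom). Same-numbered replicates did not deviate together (r of -0.003 to 0.046 across genes), so they were not paired. Protein sequences were not compared, and an open reading frame comparison replaced them. The 10 genes and the lists were chosen with earlier results of these data known. Named beside the 10 were the members of the pathway lists, up to 4 called genes of smallest p from the target and marker lists, those against a list's majority, and tested genes within 500 kb of Mixl1. Not every gene this rule covers is reported here. The 3 genes most like Nodal and Cer1 by correlation also fell under this rule and are not given, because the 6 libraries form 2 clusters. Lhx1 among endoderm markers, Wnt3, Sox17, Hhex, Eomes, Ttr and Afp were picked with their values seen.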

Additional observations from a re-analysis of the deposited data

How the results depend on the processing

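The 10 genes and Mixl1 were refitted under 15 alternatives, and of 165 values 160 kept their direction and their side of the threshold, 5 lost the call and none reversed. The alternatives were other scalings, filters, the unstranded counts, DESeq2 1.42.0, limma-voom, a test against a 1.5-fold change, the replicate number as a term, and leaving out each library. The 5 losses came from the test against a 1.5-fold change. Nodal (-0.38), Skil (-0.26) and Tgif1 (-0.41) changed by less than 1.5-fold, which that test does not call by construction. Gdf3 (0.66, 1.58-fold higher) and Lefty2 (-0.75, 1.68-fold lower) changed by more than 1.5-fold. Their excess over that bound did not pass (edgeR test against 1.5-fold, adjusted p = 0.354 for Gdf3 and 0.223 for Lefty2). That test called 2830 genes in all, 41.0% of them higher, against 9450, 49.6% of them higher. Leaving out a library, log2 fold changes ranged from -0.45 to -0.30 for Nodal, 0.54 to 0.74 for Gdf3, 1.47 to 1.66 for Tdgf1, 0.88 to 1.03 for Lefty1, -0.835 to -0.57 for Lefty2 and 7.36 to 7.59 for Cer1, all still called. Acvr2b ranged from 0.02 to 0.15 and was called in none of them (smallest adjusted p = 0.0603, edgeR, without KO replicate 3). With the replicate block, 9647 genes were called and no call among the 10 changed; the difference in the Lefty1 to Lefty2 log2 ratio stayed at 1.70 (exact sign-flip permutation p = 0.25, the smallest 3 pairs allow). Leaving out a library, that difference was 1.57 to 1.78. Low read numbers limit the precision for Cer1 in KO libraries and for low genes such as Sox17, Inha and Dand5.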
